A study of Brassica napus with 112 samples.

Results

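The difference between growing seasons was examined in unheated seeds of Solar, a spring rapeseed (Brassica napus) hybrid, in the 14 of 112 RNA-seq libraries labelled as seed, Solar and control. Season 1 (labelled S2019) gave 6 libraries, 3 at 7 and 3 at 14 days after flowering (DAF), and season 2 (S2020) gave 8 libraries, 4 at each time. All came from field plots at one station that were left at ambient temperature, and each library represents seeds from several plants of a plot, so a library is an average over plants. The comparison groups were control seeds of the hybrid Lumen, seeds of Solar from plots heated after flowering, and siliques of unheated Solar, each with 14 libraries from the same seasons, times and station. The seasons also differed in plot layout, sampling dates and weather, and these cannot be told apart from season.

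Rapeseed seeds develop between the sampling times, so seeds of the same age in days can stand at different points of development. Heat shock proteins and other chaperones bind unfolded proteins and rise in plants when temperature does. Rapeseed joins an A and a C subgenome, and most genes have a close copy in the other, which reads can be hard to assign between.

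The deposited values are whole numbers per gene on a scale like that of transcript abundances. They are not read counts, so the depth behind a value is unknown and the spread between libraries was the error. The values summed to between 891876 and 1095861 in 13 libraries and to 1658548 in replicate 1 of season 1 at 14 DAF. In that library 9 of the 10 highest genes were each more than 5 times their value in any of the other 13. They held 32.7% of its sum, against 0.0668% to 2.24% in those 13. The main counts below are also given without it. Median Spearman correlations were 0.915 to 0.940 with libraries of the same group and 0.878 to 0.924 with those of the same time in the other season. The 4 libraries of season 2 at 7 DAF fell into pairs. Genes that Lumen expresses in siliques and hardly in seeds, 208 in all, summed to 599 and 561 in replicates 1 and 4 and to 260 and 209 in replicates 2 and 3, beside 408 to 585 in season 1 at that time. The 243 genes of the reverse list summed to 14764 and 19328 in replicates 1 and 4 and to 52910 and 54763 in replicates 2 and 3, beside 15529 to 19891 in season 1. On the seed list replicates 2 and 3 thus lay nearer the libraries at 14 DAF, where it summed to 32420 to 86337. On the genes that rise or fall from 7 to 14 DAF in Lumen, given below, they lay with the season 1 libraries at 7 DAF. At 14 DAF replicate 1 of season 2 was the highest on the silique list, at 499 beside 211 to 412 in the others, and the lowest on the seed list.

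On the silique list no gene was higher and 3 of 133 tested were lower in season 2, with a median log2 difference of -0.30, where 1.52% of all genes were higher and 1.69% lower. On the seed list 8 of 242 were higher and 1 lower, with a median of 0.54 over both times that hid a median of 1.45 at 7 DAF and -0.22 at 14 DAF. Without replicate 1 of season 1 at 14 DAF 1 gene of the silique list was lower and 4 of the seed list were higher, and with a library left out the counts ranged from 0 to 3 and from 4 to 8. The part of these lists in the results was not tested.

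At the threshold used, a small share of genes was called for season once sampling time was taken into account. Of 54457 genes tested, 1745 (3.2%) passed an adjusted p (q) of 0.01 in limma, 826 of them higher (1.52%) and 919 lower (1.69%) in season 2. The median log2 difference, season 2 minus season 1 on log2(value + 0.5), was 0.63 among the higher genes and -0.92 among the lower ones, beside -0.03 over all genes tested. With libraries rescaled to the same sum, 382 genes were higher and 260 lower. Wherever replicate 1 of season 1 at 14 DAF takes part, that rescaling lowers its values against the other libraries, since its sum is the highest. Before rescaling the median ratios of the 14 libraries were 0.9953 to 1.012. Differences of at least 1 log2 unit were found for 137 higher and 417 lower genes of the 1745, and of at least 2 units for 19 and 96. Size went with level: called genes had a median absolute difference of 1.32 at a mean under 5 and 0.61 at 100 and over. Of the called genes with a mean under 5, 64 were higher and 271 lower. How far level made up the gap in size between directions was not tested. A looser threshold took in more genes, with 5959 at q under 0.05 and 14816 (27.2%) at an unadjusted p under 0.05 in limma. Without replicate 1 of season 1 at 14 DAF, 939 genes were called, 457 higher and 482 lower, and 877 of the 1745 were among them. Leaving out replicate 3 of season 1 at 7 DAF gave 729, replicate 2 of that group 1162, replicates 1 and 4 of season 2 at 7 DAF 1128 and 1077, and replicate 2 of season 2 at 14 DAF 1141. Leaving out replicates 2 and 3 of season 2 at 7 DAF together gave 712, and replicates 1 and 4 together 541. No gene called over both times changed sign in any of these fits, which share most of their libraries.

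Higher and lower genes stood at different levels. Among the 1477 genes with a mean value of 100 and over, 10.2% were higher and 1.62% lower in season 2. Among the 25109 genes with a mean under 5 the order was the opposite, with 0.255% higher and 1.08% lower. The shares were 5.52% and 0.886% among genes of 100 and over, and 0.123% and 0.576% among those under 5, without replicate 1 of season 1 at 14 DAF. The genes called higher held 4.54% to 5.26% of the summed value at 7 DAF in season 1 and 7.6% to 8.45% in season 2, and 2.37% to 4.05% and 5.44% to 6.67% at 14 DAF. The 2.37% was that of replicate 1 of season 1, whose sum 9 genes raise, and the other libraries of that group were at 3.77% and 4.05%. These shares describe the genes that the test selected.

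**Figure D1:**
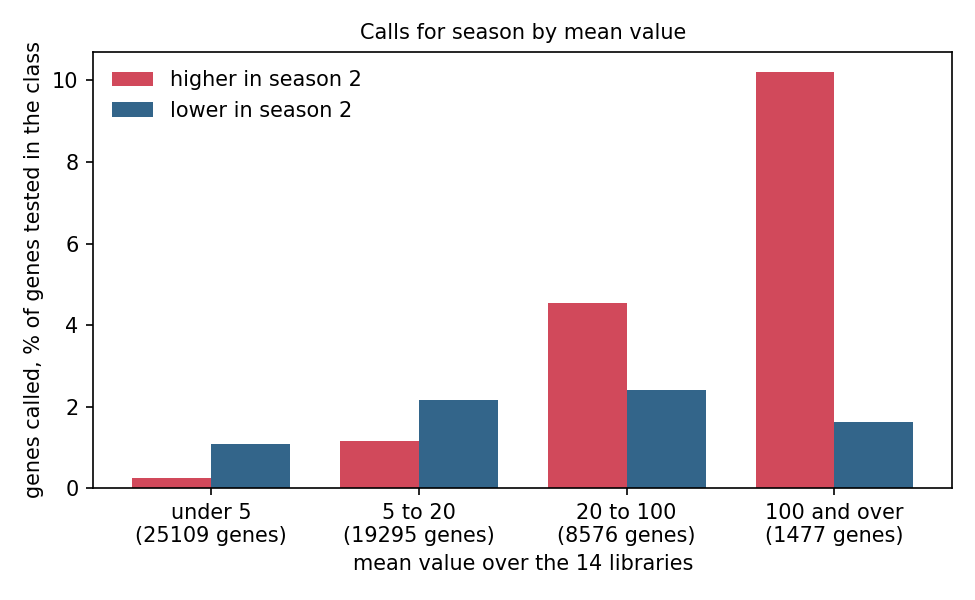
Genes called for season over both times (q under 0.01), as a percent of the genes tested in each class of mean value over the 14 libraries, with bars for genes higher and lower in season 2. Lower genes were the more frequent in the classes under 20, and higher genes in the classes of 20 and over.

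At 7 DAF alone 861 of 54082 genes were called (1.59%), 388 higher (0.717%) and 473 lower (0.875%). At 14 DAF alone 322 of 56021 were called (0.575%), 62 higher (0.111%) and 260 lower (0.464%). The split was 313 higher and 193 lower at 7 DAF and 38 and 38 at 14 DAF after median-ratio rescaling, and 0 and 0 at 7 DAF and 1 and 10 at 14 DAF with libraries rescaled to the same sum, which moved the median log2 difference of all genes at 14 DAF from -0.04 to 0.21. Many of these calls rest on small whole numbers that were identical within each group, such as 0 in every library of one season and 1 in every library of the other. That held for 395 of the 861 calls at 7 DAF and 224 of the 322 at 14 DAF, but for 10 of the 1745 over both times. Among genes with a mean of at least 5, the calls came to 407 at 7 DAF, 55 at 14 DAF and 1410 over both times, of which 762 were higher and 648 lower. Testing only genes with a mean of at least 5 left 2 calls at 14 DAF and 362 at 7 DAF, and with a mean of at least 20 no gene was called by limma at 14 DAF (2560 of 10259 at an unadjusted p under 0.05) and 574 were at 7 DAF. Leaving out replicates 2 and 3 of season 2 together gave 1330 calls at 7 DAF, and replicates 1 and 4 together 1817. At 14 DAF 684 genes were called without replicate 1 of season 1, 577 and 614 without replicates 2 and 3 of that group, and 968 without replicate 3 of season 2.

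The difference between seasons was not shown to depend on time. In limma no gene (0%) passed for season by time, with 7527 of 54457 genes at an unadjusted p under 0.05. Without replicate 3 of season 2 at 14 DAF 59 genes passed for season by time.

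No gene was at 0 in every library of one season and at 5 or more in every library of the other. Seasons did not overlap at 7 nor at 14 DAF for 855 genes that were higher (1.57%) and 861 that were lower (1.58%) in season 2. The counts were 977 and 1037 without replicate 1 of season 1 at 14 DAF, since fewer libraries have less room to overlap. The A subgenome had 436 higher and 438 lower genes among 25500 tested and the C subgenome 388 and 478 among 28777. No run of 5 or more neighbouring tested genes was called in one direction, and the longest held 3.

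Of the genes that heat raised in Lumen seeds, 10 of 20 were lower in unheated Solar seeds of season 2 and 10 did not pass. The list held the 20 genes raised by heat in Lumen seeds (q under 0.01), so no Solar library took part in choosing it. None of the 20 was higher over both times, where 1.69% of all genes were lower and 1.52% higher, and all 20 differences were negative, between -3.10 and -0.39 with a median of -1.41. At 7 DAF 19 differences were negative and at 14 DAF 20, with 1 and 2 genes called. The mean log2(value + 0.5) of the list was 3.19 to 3.91 in season 1 and 1.68 to 2.21 in season 2 at 7 DAF, and 3.93 to 4.31 and 2.29 to 2.8 at 14 DAF, so the seasons did not overlap at either time. Without replicate 1 of season 1 at 14 DAF 8 of the 20 were called lower. Without replicates 1 and 4 of season 2 at 7 DAF 6 were, and without replicates 2 and 3 of that group 10. The 3 genes lowered by heat in Lumen gave 1 call lower (0 to 1 with a library left out) and a median of 0.21.

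**Figure D2:**
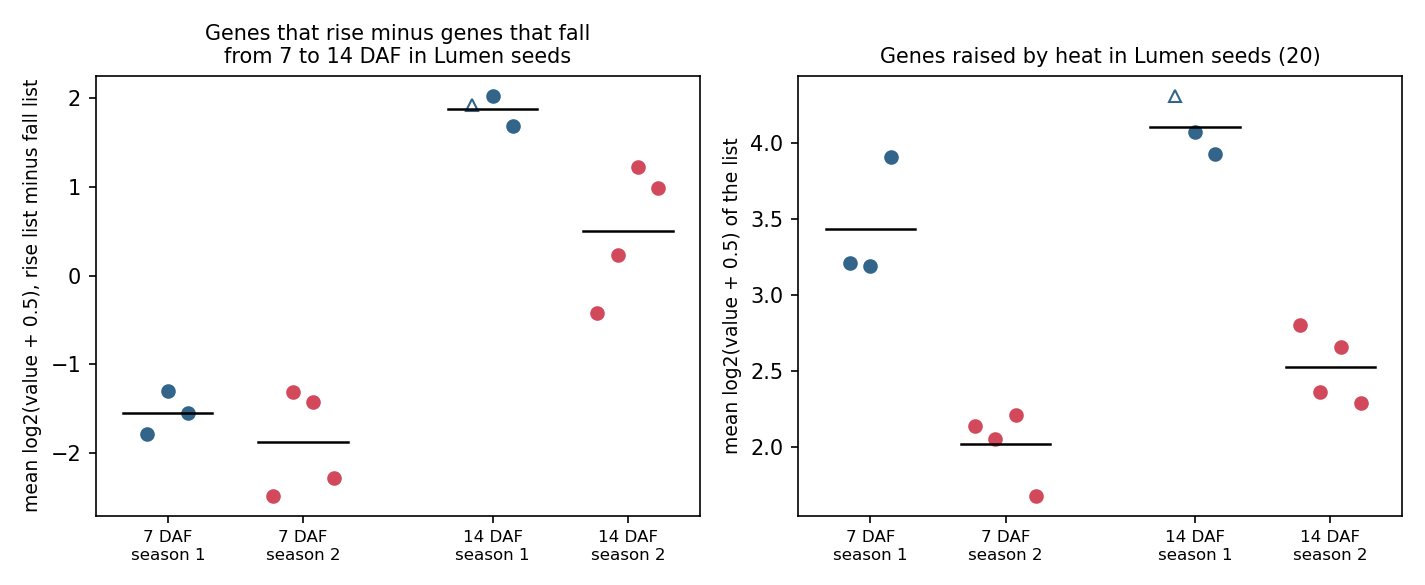
Mean log2(value + 0.5) per library, as the genes that rise minus the genes that fall from 7 to 14 DAF in Lumen seeds (left) and over the 20 genes raised by heat in Lumen seeds (right), with lines for group means and an open triangle for replicate 1 of season 1 at 14 DAF. The heat list lay at 3.19 and above in season 1 and at 2.8 and below in season 2, and the rise-minus-fall value was lower in season 2 at 14 DAF in every library.

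BnaC01g38510D, annotated with protein folding and heat shock protein binding, ranked second among the lower genes by the rule for named genes. Its values at 7 DAF were 38, 25 and 82 in season 1 and 5, 4, 7 and 4 in season 2. At 14 DAF they were 41, 37 and 36 in season 1 and 9, 6, 10 and 5 in season 2. All season 2 libraries lay below all season 1 libraries, and replicate 3 of season 1 at 7 DAF was the highest of all. The rule itself asks for a call over both times and for no overlap within a time, so these were part of the choice. The log2 difference over both times was -2.66 ± 0.26 (SE, n = 14 libraries, limma q = 0.000194). In heated Solar seeds it ranged from 91 to 189 in season 1 and from 12 to 43 in season 2, a difference of -2.46 (q = 3.65e-05). In Lumen control seeds it ranged from 10 to 16 and from 7 to 38, a difference of 0.26 (q = 0.558).

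The other genes of the heat list that carry a function in the study's module table were chosen for naming after their values were seen. BnaA01g30490D shares the annotation of BnaC01g38510D and stood at 11, 8 and 43 in season 1 and 2, 2, 1 and 2 in season 2 at 7 DAF, and at 12, 11 and 9 and at 4, 1, 2 and 1 at 14 DAF, a log2 difference of -2.59 ± 0.36 (q = 0.00141). BnaA03g32320D, annotated with protein folding, stood at 8, 13 and 28 and at 3, 1, 2 and 1 at 7 DAF, and at 11, 9 and 7 and at 4, 2, 1 and 1 at 14 DAF, a difference of -2.44 ± 0.34 (q = 0.00147). BnaC02g12750D, annotated with protein folding and ATP hydrolysis, stood at 38, 33 and 76 and at 14, 17, 14 and 13 at 7 DAF, and at 36, 23 and 21 and at 15, 11, 10 and 10 at 14 DAF, a difference of -1.39 ± 0.19 (q = 0.00152). None of these genes overlapped between seasons at either time, and in each replicate 3 of season 1 was the highest library at 7 DAF. BnaA07g31420D and BnaC06g35220D, annotated with ATP hydrolysis, had means of 3.36 and 1.5, with differences of -3.10 (q = 0.00141) and -2.53 (q = 0.00163) that depend on the 0.5 added to each value.

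The heat list was also lower in season 2 in other Solar material. In heated Solar seeds 12 of the 20 were lower and none higher, with a median of -1.21, where 7.24% of 55568 genes were called in either direction. In Solar control siliques 5 of 16 tested were lower and none higher, with a median of -1.35, where 0.583% of 56057 were called. In Lumen control seeds, which served in choosing the list, 3 of 20 were higher and none lower, with a median of 0.19, where 6.41% of 54589 were called. Season by hybrid was called for 10 of the 20, all with the lower value of the difference in Solar, where 1.45% of 59899 genes were called.

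**Figure D3:**
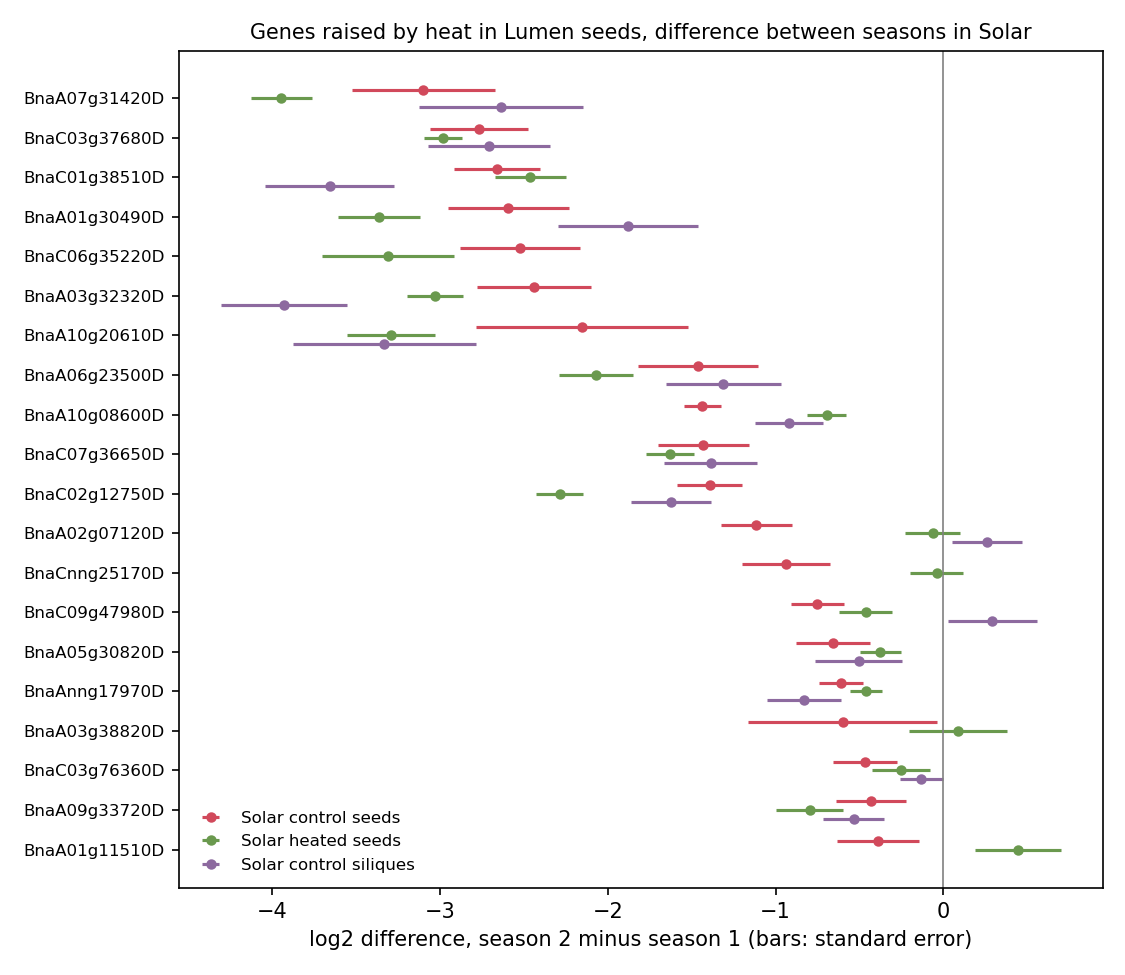
Log2 difference between seasons (season 2 minus season 1, with standard error) of the 20 genes raised by heat in Lumen seeds, in Solar control seeds, heated seeds and control siliques. In Solar control seeds every point lies below 0, from -3.10 to -0.39.

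Most genes that change from 7 to 14 DAF in Lumen did not pass, but those that did went mostly one way on each list. Of the genes that rise by at least 1 log2 unit from 7 to 14 DAF in unheated Lumen seeds, 1656 were tested in Solar, and 166 (10%) were lower and none higher in season 2, with a median of -0.58. Of 878 tested genes that fall in Lumen, 48 (5.47%) were higher and 9 (1.03%) lower, with a median of 0.25. Over all genes 1.52% were higher and 1.69% lower, with a median of -0.03. The 166 became 93 without replicate 1 of season 1 at 14 DAF, 104 without replicate 2 or 3 of that group, 85 and 105 without replicates 3 and 2 of season 1 at 7 DAF, and 79 with libraries rescaled to the same sum. The 48 became 35 without replicate 1 of season 1 at 14 DAF, 22 without replicate 3 of season 1 at 7 DAF and 30 without replicate 4 of season 2 at 7 DAF. Without replicates 1 and 4 of season 2 at 7 DAF the counts were 71 and 17, and without replicates 2 and 3 of that group 138 and 23. The medians of the rise list were -0.32 at 7 DAF and -0.91 at 14 DAF, and those of the fall list 0.04 and 0.36. The mean of the rise list minus that of the fall list was -1.79 to -1.30 in season 1 and -2.48 to -1.31 in season 2 at 7 DAF, which overlapped. The latter range was again a pair of pairs, with replicates 1 and 4 at -2.48 and -2.28, below all of season 1, and replicates 2 and 3 at -1.31 and -1.43, within its range. At 14 DAF it was 1.69 to 2.03 in season 1 and -0.42 to 1.23 in season 2, which did not, with replicate 1 the lowest. The median change from 7 to 14 DAF was 1.83 in season 1 and 1.27 in season 2 on the rise list, and -1.22 and -0.92 on the fall list. In heated Solar seeds the rise list gave 45 higher and 107 lower genes of 1821 tested, with a median of 0.01. The fall list gave 43 higher and 24 lower of 848 there, with a median of -0.13. Over all genes 7.24% of 55568 were called in either direction in heated Solar seeds. How far the stage of the seeds took part in the other differences was not tested.

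Printed members of the study's co-expression modules carry the only functions that could be attached to many identifiers, 1726 tested genes in all. The study built its modules on seeds at 7 DAF, which include the 7 libraries of that time described here and none at 14 DAF, and several lists are cut short, so the counts are not independent evidence, and the groups were taken up after the data were seen. In the module firebrick 41 of 175 genes were lower and none higher, with a median of -0.33, where 1.69% of all genes were lower and 1.52% higher. By function 14 of 44 ATP hydrolysis genes, 4 of 9 sulfate assimilation genes and 3 of 7 protein oligomerization genes were lower, and none was higher. The counts were 21 for the module and 7, 1 and 2 for the terms without replicate 1 of season 1 at 14 DAF, and with libraries rescaled to the same sum 13 for the module and 5, 0 and 2 for the terms. In the module lightskyblue2 30 of 868 were higher and 4 lower, with a median of 0.10, and without replicate 1 of season 1 at 14 DAF 13 and 1. Its higher genes included 6 of 44 in ribonucleoprotein complex biogenesis and 5 of 44 with structural molecule activity, with none lower, but 1 of each without that library. In lightblue3 4 of 683 were higher and 1 lower, a smaller share than that of all genes. Of 88 protein folding genes, which come from firebrick and lightskyblue2, 14 were lower and 3 higher, so the term did not move one way. The 14 lower genes were members of firebrick and the 3 higher ones of lightskyblue2. Without that library 9 were lower and 2 higher.

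Sulfate assimilation, by which plants reduce sulfate to build cysteine, rested on 4 called genes, of which BnaC09g08710D alone did not overlap between seasons at either time. BnaA09g08410D, whose printed terms include adenylylsulfate kinase activity, stood at 38, 24 and 26 in season 1 and 8, 8, 8 and 15 in season 2 at 7 DAF, and at 6, 9 and 11 and at 6, 3, 3 and 3 at 14 DAF. The seasons met at 14 DAF, and the difference was -1.35 ± 0.21 (q = 0.00262, at most 0.00846 with a library left out, and 0.0143 with libraries rescaled to the same sum). BnaC09g08710D, with the same terms, stood at 28, 25 and 20 and at 8, 8, 7 and 15 at 7 DAF, and at 7, 6 and 9 and at 5, 3, 5 and 3 at 14 DAF. Its difference was -1.09 ± 0.20 (q = 0.00499), and the call was lost in 9 of 14 fits with a library left out. BnaA03g38670D and BnaC07g17320D gave -0.96 (q = 0.0064) and -0.51 (q = 0.00527), and their calls were lost in 11 and 9 of those 14 fits. No call of these 4 genes was kept with libraries rescaled to the same sum.

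BnaA03g25240D, of ribonucleoprotein complex biogenesis, stood at 29, 28 and 29 and at 59, 54, 56 and 60 at 7 DAF, and at 26, 30 and 20 and at 47, 42, 40 and 34 at 14 DAF. All season 2 libraries lay above those of season 1, and the difference was 0.83 ± 0.10 (q = 0.000582, and at most 0.00242 with a library left out). These genes were chosen after their values were seen.

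The study's text names 10 transcription factors as network hubs, picked in a network of seeds at 7 DAF that holds the 7 libraries of that time. Over both times 3 were higher and 2 lower in season 2, against 1.52% and 1.69% of all genes, and 5 did not pass. SEP3 (BnaC03g57540D), a MADS-box factor of floral organ identity in Arabidopsis, stood at 90, 103 and 98 in season 1 and 252, 191, 237 and 216 in season 2 at 7 DAF. At 14 DAF it stood at 72, 99 and 92 and at 176, 175, 159 and 144. No season 1 library reached a season 2 library at either time, and the difference was 1.05 ± 0.10 (SE, q = 0.000156), with means of 97.0 ± 6.56 (SD, n = 3) and 224 ± 26.5 (SD, n = 4) at 7 DAF.

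ABI4 (BnaA03g18970D), a factor of abscisic acid signalling in Arabidopsis, stood at 4, 5 and 3 and at 10, 11, 15 and 9 at 7 DAF, and at 3, 3 and 3 and at 5, 5, 5 and 6 at 14 DAF. The seasons did not overlap, and the difference was 1.05 ± 0.15 (q = 0.00179). INO1 (BnaC05g18750D), named by the study as the counterpart of INNER NO OUTER, a YABBY factor of the outer integument in Arabidopsis, stood at 9, 9 and 11 and at 28, 21, 25 and 22 at 7 DAF, and at 9, 17 and 14 and at 22, 22, 24 and 14 at 14 DAF. The seasons overlapped at 14 DAF, where replicate 4 of season 2 was not above replicates 2 and 3 of season 1, and the difference was 0.94 ± 0.17 (q = 0.00564). The call was lost in 11 of 14 fits with a library left out, with q up to 0.0166, and with libraries rescaled to the same sum (q = 0.0109).

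OSX2 (BnaA04g24200D) was lower in season 2, with 28, 34 and 31 and 22, 23, 18 and 20 at 7 DAF, and 34, 32 and 31 and 28, 22, 25 and 26 at 14 DAF. The difference was -0.46 ± 0.08 (q = 0.00404), with q = 0.0109 without replicate 1 of season 1 at 14 DAF and 0.0135 without replicate 3 of season 1 at 7 DAF. With libraries rescaled to the same sum it was -0.35 (q = 0.147). BnaA06g29050D, which has no name in the study, gave 18, 20 and 21 and 12, 14, 13 and 11 at 7 DAF, and 18, 18 and 16 and 15, 15, 14 and 15 at 14 DAF. Neither gene overlapped between seasons, and the difference of BnaA06g29050D was -0.43 ± 0.09 (q = 0.00859). That call was lost in 13 of 14 fits with a library left out, with q up to 0.0243, with no filter (q = 0.0102), without trend (q = 0.0137) and with libraries rescaled to the same sum (q = 0.203).

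Of the hubs that did not pass, BnaC05g51140D gave -0.50 ± 0.11 (q = 0.016), PHL2 (BnaC03g43430D), of the phosphate starvation response family in Arabidopsis, 0.16 ± 0.06 (q = 0.0811), and MYC67 (BnaC08g31840D) 0.24 ± 0.13 (q = 0.257). NGA1 (BnaC03g72370D), a B3-domain factor in Arabidopsis, gave -0.49 ± 0.37 (q = 0.425). ARF2 (BnaA06g21460D), an auxin response factor, gave -0.16 ± 0.14 (q = 0.504), with differences of -0.56 at 7 DAF (q = 0.0432) and 0.24 at 14 DAF (q = 0.412). Its values were 38, 36 and 38 in season 1 and 26, 22, 23 and 30 in season 2 at 7 DAF, which did not overlap, and 21, 15 and 18 and 24, 22, 20 and 19 at 14 DAF, which did. The change of sign of ARF2 between times did not pass the test (season by time q = 0.109). In Lumen control seeds and heated Solar seeds, where 6.41% and 7.24% of all genes were called, PHL2 did not pass. ARF2, MYC67, NGA1 and BnaC05g51140D were called in both, in the same direction as over both times here. Their differences were -0.75 and -0.57, 0.64 and 0.61, -1.44 and -0.89, and -0.74 and -0.60. In Solar control siliques none of them passed.

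**Figure D4:**
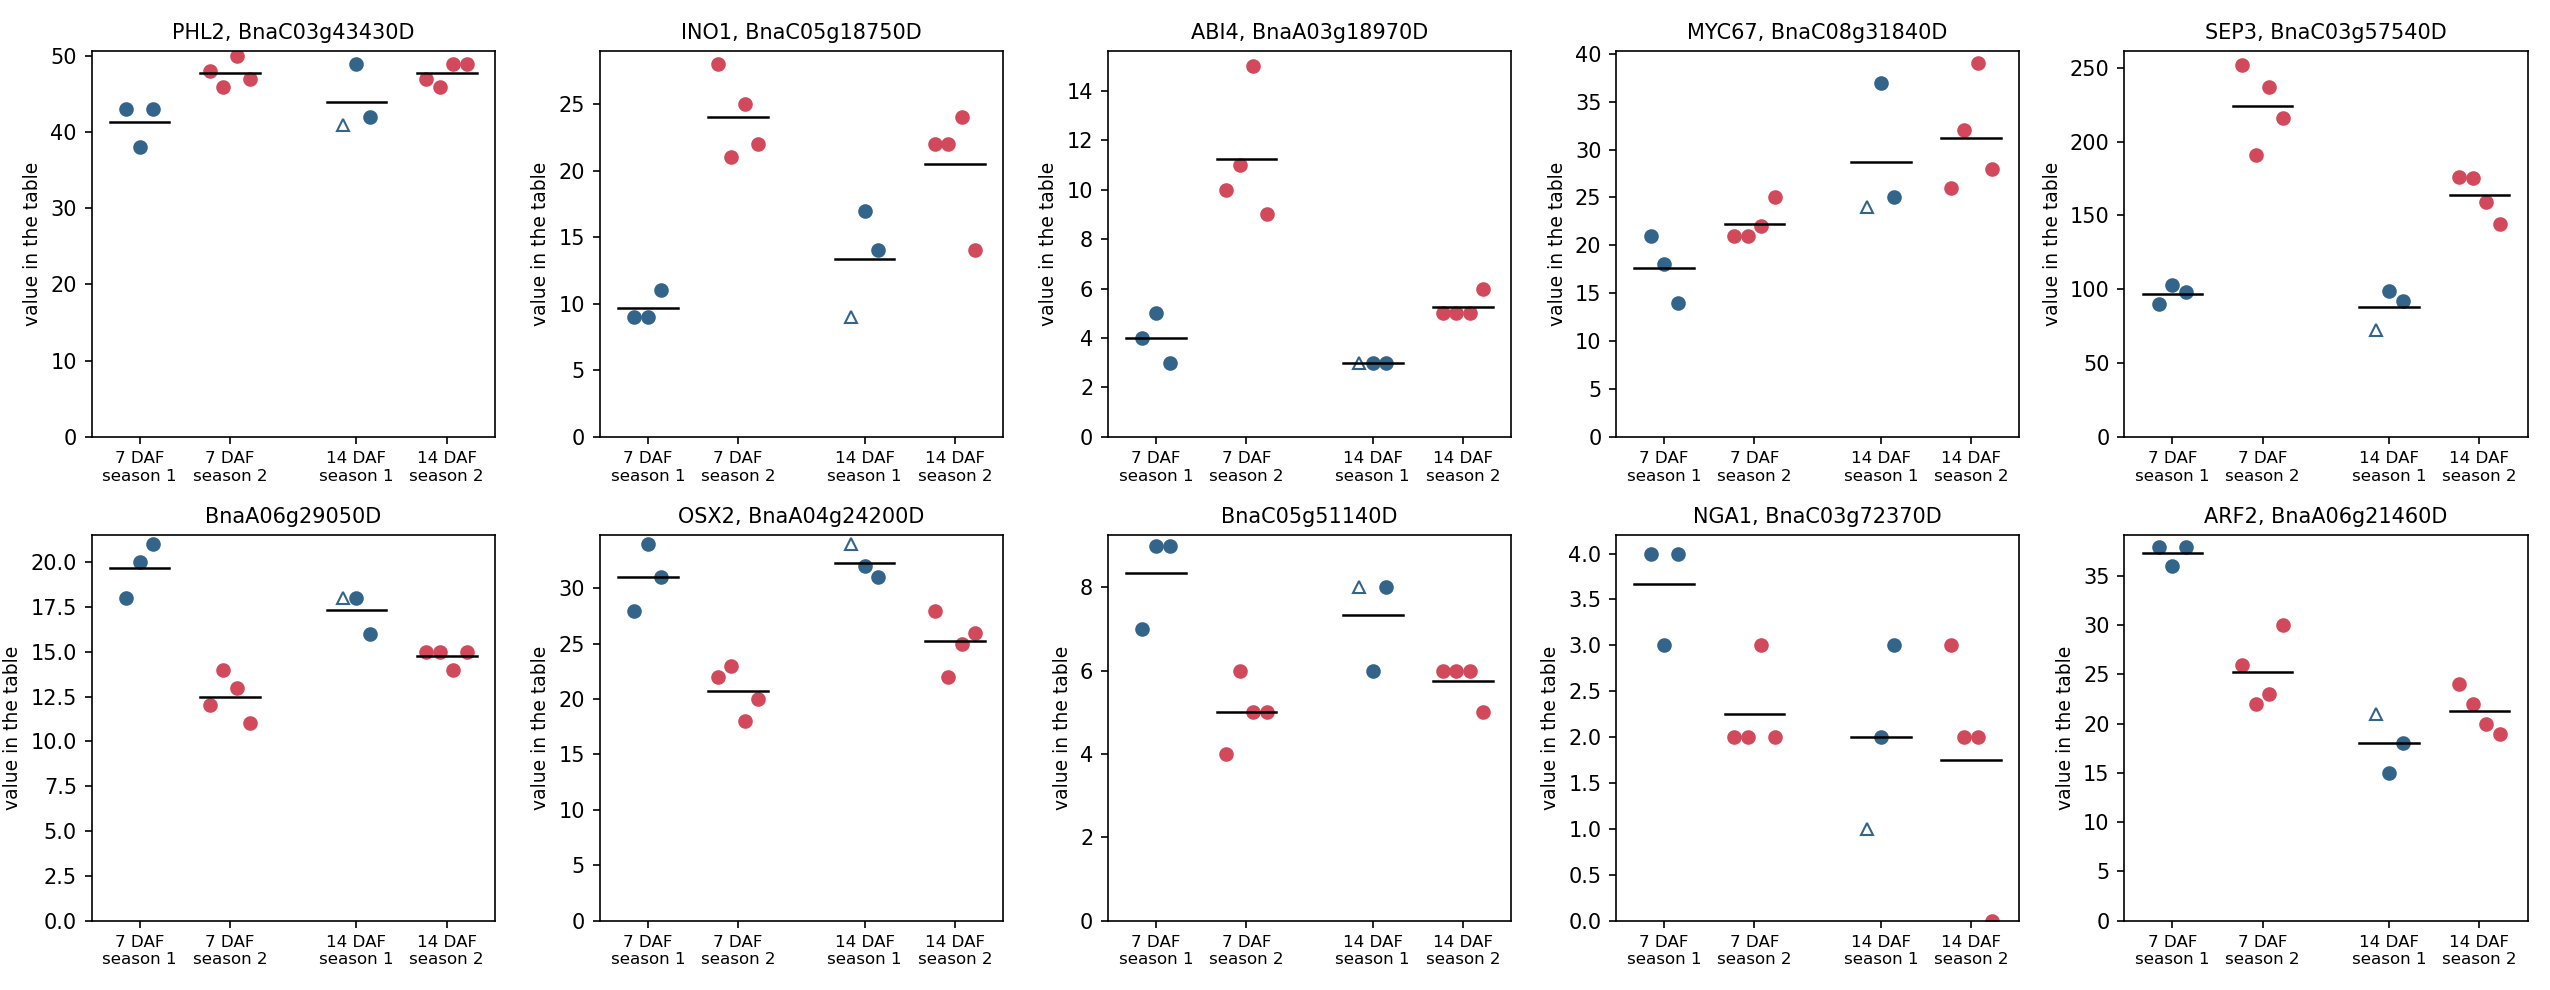
Deposited values of the 10 hub genes in each of the 14 libraries by time and season, with lines for group means and an open triangle for replicate 1 of season 1 at 14 DAF. SEP3 and ABI4 lie higher in every season 2 library of each time, and OSX2 and BnaA06g29050D lower.

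The rule for named genes asked for a call over both times, a mean of at least 20 and no overlap at either time, which 441 higher and 188 lower genes met. The 2 highest-ranked of each direction are described, and BnaC01g38510D was one of them. BnaC07g29960D stood at 5, 11 and 9 in season 1 and 99, 62, 120 and 77 in season 2 at 7 DAF, and at 17, 4 and 4 and at 41, 39, 20 and 59 at 14 DAF. The gap was wide at 7 DAF and narrow at 14 DAF, where 17 and 20 were the nearest values, and the difference was 2.89 ± 0.36 (q = 0.000758). In Lumen control seeds it ranged from 27 to 89 in season 1 and from 11 to 90 in season 2, a difference of -0.39 (q = 0.3). In heated Solar seeds the ranges were 2 to 48 and 4 to 129, a difference of 1.52 that did not pass (limma q = 0.213). In Solar control siliques the difference was 3.81 (q = 0.00439).

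BnaC05g45560D stood at 58, 24 and 28 and at 132, 438, 930 and 240 at 7 DAF, and at 36, 49 and 74 and at 100, 189, 114 and 268 at 14 DAF. Its season 2 libraries varied widely, and the difference was 2.45 ± 0.46 (q = 0.00652). The call was lost in 9 of 14 fits with a library left out, with q up to 0.0207. BnaC02g04530D stood at 35, 18 and 33 and at 4, 3, 1 and 8 at 7 DAF, and at 84, 54 and 88 and at 1, 0, 7 and 1 at 14 DAF. It was near 0 in season 2 at 14 DAF, and the difference was -4.17 ± 0.63 (q = 0.00206, and 0.0104 without replicates 2 and 3 of season 2 at 7 DAF). In heated Solar seeds BnaC05g45560D differed by 1.46 (limma q = 0.0259) and BnaC02g04530D by -1.29 (q = 0.0892), and neither passed.

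**Figure D5:**
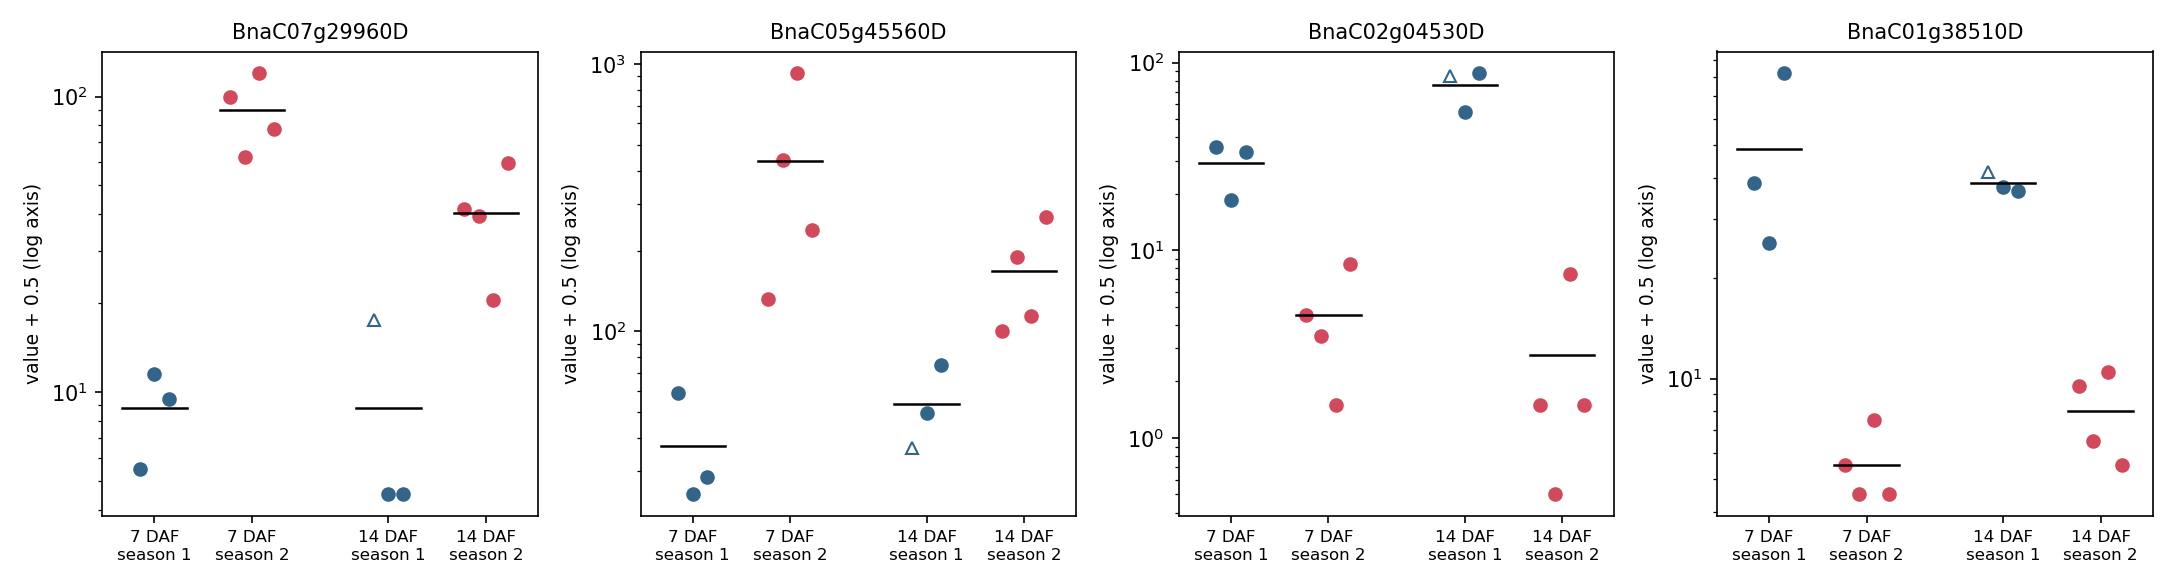
Deposited values plus 0.5, on a log axis, of the 4 genes named by rule in each of the 14 libraries by time and season, with lines for means and an open triangle for replicate 1 of season 1 at 14 DAF. The seasons do not overlap within a time, as the rule asks, and BnaC02g04530D ranges from 0 to 88 before the 0.5 is added.

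The genes called in Solar control seeds were set beside the same contrast in libraries they do not share. In heated Solar seeds 801 of 823 higher and 883 of 911 lower genes had the same sign, and 421 and 322 were called the same way, with none called the opposite way. Over all genes tested in both, 48.1% and 51.9% had those signs there, and 3.79% and 3.69% were called in those directions. Season by treatment passed for no gene in limma (0%), with 5771 of 59785 at an unadjusted p under 0.05.

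In Solar control siliques 741 of 797 higher and 778 of 841 lower genes had the same sign, against 49.9% and 50.1% of all genes tested in both. There 37 and 44 were called the same way, against 0.196% and 0.346% of all genes. Season by tissue passed for 55 of 63080 genes (0.0872%), 28 with a higher and 27 with a lower season difference in seeds (31 and 18 after median-ratio rescaling), but 40 of these had a mean under 5 in seeds or in siliques. With a mean of at least 5 in both tissues 9 of 22300 passed. The 55 are therefore given as a count only. Without replicate 1 of season 1 at 14 DAF 30 passed, and without replicates 2 and 3 of that group 32 and 31, or replicates 1 and 3 of season 1 at 7 DAF 36 and 32.

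In Lumen control seeds 685 of 820 higher and 611 of 898 lower genes had the same sign, 189 and 95 were called the same way, and 3 and 16 the opposite way. Over all genes tested in both, 50.4% and 49.6% had those signs there, and 3.27% and 3.34% were called in those directions. Season by hybrid was called for 868 of 59899 genes (1.45%), 241 with a higher and 627 with a lower season difference in Solar than in Lumen. With libraries rescaled to the same sum the split was 206 and 217. With a mean of at least 5 in both hybrids 911 were called. Without replicate 1 of season 1 at 14 DAF 519 were called, without replicate 2 of that group 478, and without replicate 3 of season 1 at 7 DAF 555. Among the rise list 283 of 1859 genes (15.2%) had the lower difference in Solar, and Lumen libraries had served in choosing that list. On it 204 genes were higher and 5 lower in season 2 in Lumen control seeds. The median was 0.65 there, against -0.58 in Solar control seeds, so the 283 hold a change in Lumen too.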

How the data were processed

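Stranded total RNA libraries were pseudoaligned by the authors with kallisto 0.46 and analysed with sleuth, per the labels and the study's methods. The authors deposited 1 table of whole-number values for 101040 genes, used here as a score since its scaling was not given in the sources used here. Values were not read counts, so no count model was used. From the deposited scores log2(value + 0.5) was computed, and limma 3.58.1 in R 4.3.3 (lmFit, eBayes with trend, Benjamini-Hochberg over all genes tested, q under 0.01, as in the study) fitted season with sampling time. A gene needed a value of 1 or more in at least 6 libraries, or 3 for one time alone. Season by hybrid, by treatment and by tissue were fitted over 28 libraries. Fits were tested on simulated data, where values bounded at 0 and rounded to whole numbers gave false calls, mostly at one time alone and for season by tissue, where they outnumbered the calls made in the data, so counts for genes of higher values are given too. The study's methods state that replicates of a group came from independent plots. They also give the field design of season 2 as 3 replicates, where the labels hold 4 per group, and this was not resolved. The p-values measure the spread between libraries of one station, which is the spread between plots only if each library was a plot of its own.

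Named genes were the 2 highest-ranked of each direction called over both times, with a mean of at least 20 and no overlap between seasons at either time, and the 10 hub factors named by the study. The members and lists were chosen with earlier results of these data known. Of the identifiers 3347 matched the gene table used for names, which uses another assembly, and 2 of them carried a name, so the planned lists by gene symbol, such as seed storage proteins and oil synthesis, could not be run. Replicate numbers did not pair libraries: deviations from group means of libraries with one number correlated between -0.213 and 0.328 across times within a season. Alternatives were a pseudocount of 5, 4 other filters, 2 rescalings, q under 0.05, no trend, array weights, a replicate block, a plot correlation and each library left out, and after the data were seen a filter on a mean of at least 5 and the pairs of season 2 libraries at 7 DAF left out.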

Additional observations from a re-analysis of the deposited data

Results flagged for a closer look

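Library measures and named genes were checked within the season 2 groups of 4 libraries. Of 44 checks, 5 had a lone value far from the others. The rate by chance, about 1 in 20, holds for independent values without ties, and these checks share libraries and include tied whole numbers. In 4 of them the other 3 libraries shared one small whole number, so a step of 1 was enough: ABI4 (BnaA03g18970D) was at 6 in replicate 4 and 5 elsewhere at 14 DAF, BnaA06g29050D at 14 in replicate 3 and 15 elsewhere at 14 DAF, BnaC05g51140D at 5 in replicate 4 and 6 elsewhere at 14 DAF, and NGA1 (BnaC03g72370D) at 3 in replicate 3 and 2 elsewhere at 7 DAF. BnaC02g04530D was at 7 in replicate 3 at 14 DAF, with a group median of 1.

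For 3 of the genes named, the season difference in Solar control seeds differed from that in Lumen control seeds (season by hybrid, limma, 28 libraries). These 3 were named for a large season difference in the same Solar libraries, which the test uses again. The sizes and q values below are therefore not independent of that choice. The difference of differences, Solar minus Lumen, was 3.28 ± 0.44 (SE, q = 0.000156) for BnaC07g29960D, 3.79 ± 0.83 (q = 0.00904) for BnaC05g45560D and -2.92 ± 0.38 (q = 9.99e-05) for BnaC01g38510D. In Lumen the genes differed between seasons by -0.39, -1.34 and 0.26, none of which passed.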

How the results depend on the processing

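Over both times 1745 genes were called, and the count was 5959 at q under 0.05, 642 with libraries rescaled to the same sum, 2684 with a correlation for plots shared by both times (consensus correlation -0.107) and 729 to 1467 with each library left out, and 712 and 541 without replicates 2 and 3 or 1 and 4 of season 2 at 7 DAF. At 7 DAF 861 became 3664 at q under 0.05, 343 with 5 or more in 3 libraries, 506 with median-ratio rescaling, 0 in limma with same-sum rescaling (12738 at an unadjusted p under 0.05), 362 with a mean of 5 or more and 638 to 1229 with a library left out, and 1330 and 1817 without those pairs. At 14 DAF 322 became 1304 at q under 0.05, 40 with 1 or more in 47% of libraries, 5 with 5 or more in 3 libraries, 0 with a mean of 20 or more, 76 with median-ratio and 11 with same-sum rescaling, 500 without trend, 2 with a mean of 5 or more and 354 to 968 with a library left out. Season by time gave 56 at q under 0.05, 10 with a pseudocount of 5, 297 with no filter, 12 without trend and 0 to 59 with a library left out. Season by hybrid gave 3776 at q under 0.05, 542 with a mean of 20 or more, 423 with same-sum rescaling and 478 to 1106 with a library left out. Season by treatment gave 0 to 2 with a library left out. Season by tissue gave 236 at q under 0.05, 112 with a pseudocount of 5, 33 with 1 or more in 47% of libraries, 25 with 5 or more in 6, 2 with a mean of 20 or more, 20 with same-sum rescaling, 9 with a mean of 5 or more in both tissues and 30 to 57 with a library left out. Causes were not tested, except that stricter filters and libraries left out test fewer genes or samples. Either rescaling also takes some values of 1 under the filter of 1. With median ratios this left 51145 of 54082 genes at 7 DAF and 51145 of 56021 at 14 DAF. Same-sum rescaling lowers replicate 1 of season 1 at 14 DAF against the other libraries in the fits that hold it.

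The replicate block gave 320 calls over both times, and in limma 0 at 7 DAF and 0 at 14 DAF (11189 and 8593 at an unadjusted p under 0.05), and 4 of 14 libraries correlated best with their own number at the other time. The block left 48 of 166 calls on the rise list, 11 of 48 on the fall list, 4 of 10 on the heat list and 3 of 41 in the module firebrick. The number is shared by name only. Of the calls over both times, 1627 were shared with median-ratio rescaling, 601 with same-sum rescaling and 312 with the replicate block.

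At 14 DAF BnaA06g29050D turned to 0.054 with same-sum rescaling, and NGA1 (BnaC03g72370D) turned to 0.25 with the replicate block and ranged from -0.70 to 0.25 with a library left out, none of them past the threshold. Depth is unknown, and values under 5 are limited most by the rounding to whole numbers.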
